A study of Rattus norvegicus with 8 samples.

Results

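The transcripts of 10 genes of the NF-kappaB system, its DNA-binding subunits and the proteins that hold them in check, were examined in the hippocampus of adrenalectomized (ADX) rats after an infusion of vehicle or corticosterone (CORT). The genes were set by name (Nfkbia, Nfkbib, Nfkbie, Nfkbiz, Rela, Nfkb1, Relb, Nfkb2, Ikbkb and Tnfaip3). Each of the 10 symbols had 1 Ensembl transcript among the 16266 transcripts, of 13272 gene symbols, in the authors' table. The 8 rats, all without adrenal glands, fell into 2 groups of 4. The vehicle group received 0.45% saline (its sample titles read "Untreated") and the CORT group received corticosterone in a cyclodextrin complex at 0.75 mg/mL in the same saline. Both infusions ran for 30 min from zeitgeber time (ZT) 2, and whole hippocampi were taken 2 h after the infusion began. The labels give Sprague-Dawley rats of 3 to 4 months, whereas the study's methods name male Lister hooded rats. Before the experiment the rats had been kept on corticosterone in their drinking saline, which was withdrawn some hours before the infusion. The comparison asks which hippocampal transcripts differ when corticosterone is given to rats that make none of their own. The labels name no cyclodextrin for the vehicle group, so corticosterone and its carrier cannot be told apart.

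NF-kappaB is a family of dimeric transcription factors. In resting cells the dimers are held in the cytoplasm by inhibitors of the IkappaB family. Signals from cytokine and pattern recognition receptors activate the IkappaB kinase, the inhibitor is phosphorylated and degraded, and the freed dimer enters the nucleus. There it activates genes of inflammation and survival, and among them the genes of its own inhibitors, which closes a negative feedback loop. Glucocorticoids oppose NF-kappaB signalling, both through direct contact of their receptor with the RELA protein and through raised transcription of Nfkbia, a known target of the glucocorticoid receptor in several cell types. In the brain the pathway is active in neurons and glia and is best known for its part in the inflammatory response of microglia and endothelium.

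The sequences near the gene starts are shown first, because they mark which members carry the binding letters of their own family. A window from 250 bases before to 50 bases after the gene start was taken from RefSeq (build GRCr8) for the 8 members that have one. Relb and Ikbkb have no entry. Both strands were searched for the kB consensus, the 10-base sequence that NF-kappaB dimers bind, and overlapping matches were joined. It was found in 6 of the 8 windows, against 4.18% of the 33469 windows of all genes and 4.88% of the 10590 windows of genes that were measured at 1 FPKM or more. A match is a description of the letters and does not show that a protein binds. In the lines that follow, the capitals mark the match and up to 10 bases stand on each side, all on the strand of the gene.
Nfkbia, chr6:78597084-78597113, minus strand: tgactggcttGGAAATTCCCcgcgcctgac
Nfkbie, chr9:22948017-22948046, minus strand: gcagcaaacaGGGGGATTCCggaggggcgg
Nfkbiz, chr11:58251698-58251727, plus strand: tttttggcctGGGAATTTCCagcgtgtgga
Nfkb1, chr2:226805440-226805469, minus strand: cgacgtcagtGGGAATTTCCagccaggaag
Nfkb2, chr1:255108344-255108373, plus strand: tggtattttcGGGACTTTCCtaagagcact
Tnfaip3, most distal, chr1:15544130-15544159, minus strand: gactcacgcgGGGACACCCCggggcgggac
Tnfaip3, middle, chr1:15544027-15544056, minus strand: tcacgtgactGGAAAGTCCCtcggaaatcc
Tnfaip3, most proximal, chr1:15544015-15544044, minus strand: aaagtccctcGGAAATCCCCctgtggcgaa

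Tnfaip3 held 3 matches and each of the other 5 genes held 1. The same 10 letters stand in Nfkbiz and Nfkb1, at -13 to -4 and at 4 to 13 from the start, where the first transcribed base is 1 and the base before it is -1. In Nfkbia the match lies at -31 to -22. The windows of Nfkbib and Rela held no match. The same 8 windows were searched for the glucocorticoid response element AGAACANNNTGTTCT, for its core ACANNNTGT and for the half-site AGAACA, each on both strands. The core and the half-site both lie within the full element. None of the 8 windows held any of the 3, whereas 0.0149%, 6.86% and 20.7% of all windows did. Among the 10590 windows of genes at 1 FPKM or more, the shares were 0.00%, 3.85% and 12.5%. Glucocorticoid response elements often lie far from the gene start, so the windows say nothing about elements elsewhere.

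**Figure D1:**
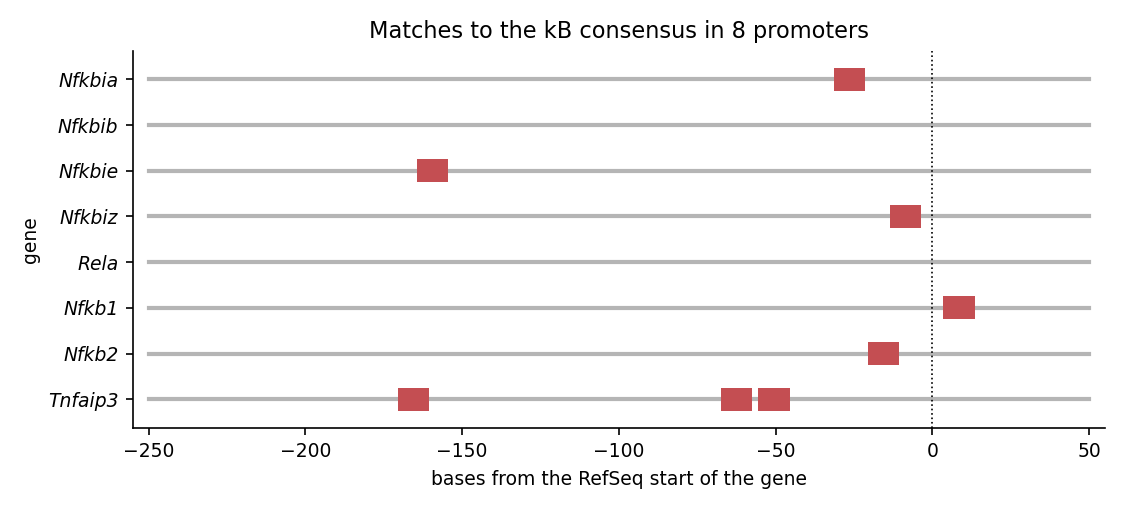
Matches to the kB consensus in the promoter windows of 8 members, with the distance in bases from the RefSeq start on the horizontal axis and a grey line for the window searched. Red boxes are matches: 6 genes hold at least 1, Tnfaip3 holds 3, and Nfkbib and Rela hold none.

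The 250 bases upstream of Nfkbia, the member with the largest ratio between the groups, are given in full, with the kB match in capitals (chr6:78597073-78597322, minus strand, GRCr8).
Nfkbia upstream: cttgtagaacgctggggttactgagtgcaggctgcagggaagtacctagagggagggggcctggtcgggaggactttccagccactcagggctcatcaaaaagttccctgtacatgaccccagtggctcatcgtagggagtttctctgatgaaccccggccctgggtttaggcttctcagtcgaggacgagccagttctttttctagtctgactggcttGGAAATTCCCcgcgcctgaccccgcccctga

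Levels are given as FPKM, the number of sequenced fragments scaled for library size and for transcript length, so that genes can be set side by side. The table analysed holds 1 FPKM value for each group of 4 rats and none for a single rat. No SD, interval or test between groups could therefore be computed, the depth of each library is unknown, and each difference is one between 2 group values with no replicate check. In place of a replicate error, each ratio is set beside the ratios of all transcripts at a similar level, that is with a mean of the 2 groups within 2-fold of the member's. A transcript was counted as higher or lower when its FPKM differed by at least 1.5-fold and reached 1 FPKM in at least one group. Of the 15808 transcripts that reached it, 4.00% were higher and 4.45% were lower by that rule (8.45% in all), and all 10 members reached it. Of the members, 1 was higher and 0 were lower. Their median log2 ratio of CORT over vehicle was -0.05, against 0.02 over all transcripts. By mean FPKM the members ranged from percentile 2.92 of those transcripts, for Nfkbiz, to percentile 60.1, for Nfkbia.

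Nfkbia, which encodes the inhibitor IkappaBalpha, was the member past 1.5-fold. Its level was 9.61 FPKM under vehicle and 19.1 FPKM under CORT, a 1.98-fold higher level and a log2 ratio of 0.99. IkappaBalpha is the inhibitor that is degraded and remade fastest after stimulation. Among the 15808 transcripts, 288 (1.82%) had a ratio at least as high. Among the 5732 transcripts at a similar level, 1.03% lay as far from 0 in either direction, and the log2 ratios of that set had quartiles of -0.07 and 0.13. The transcript lies on chromosome 6 between 76267227 and 76270457 of rn6, the build of all transcript positions given here. For scale, a list of 18 well-known glucocorticoid target genes, chosen like the members with earlier results of these data known, had 20 transcripts, of which 14 were higher and 0 were lower by the same rule. Their median log2 ratio was 0.78, below that of Nfkbia.

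The other two cytoplasmic inhibitors were nearer to equal between the groups. Nfkbib, which encodes IkappaBbeta, measured 10.5 FPKM under vehicle and 11.0 FPKM under CORT, a log2 ratio of 0.07 (chromosome 1 between 86941073 and 86948845). Nfkbie, which encodes IkappaBepsilon, measured 4.84 FPKM under vehicle and 5.62 FPKM under CORT, a log2 ratio of 0.22 (chromosome 9 between 17828407 and 17835240). At similar levels, 64.2% of transcripts lay as far from 0 as Nfkbib and 34.8% as far as Nfkbie. Neither value stands out from transcripts of the same level.

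Nfkbiz encodes IkappaBzeta, an atypical member that works in the nucleus, where it can activate as well as repress target genes. It had the lowest level of the 10, 0.847 FPKM under vehicle and 1.23 FPKM under CORT, a log2 ratio of 0.54 (chromosome 11 between 47243341 and 47271487). This ratio lay just under the 1.5-fold line. Of the transcripts at its level 33.8% lay as far from 0, and 30.8% were past 1.5-fold in one direction or the other, so a ratio of this size was common there. With 1 FPKM added to both groups its log2 ratio was 0.27.

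The 4 subunits among the members all had a lower value with CORT, each by less than 1.5-fold. Rela encodes p65, the subunit with the main activating domain of the classical dimer. It was at 13.4 FPKM with vehicle, the highest level of the 10 in that group, and at 11.7 FPKM with CORT (log2 ratio -0.20, chromosome 1 between 220992769 and 221003249). Nfkb1 encodes p105, which is processed to p50, the usual partner of p65. Its level was 7.71 FPKM under vehicle and 7.26 FPKM under CORT (log2 ratio -0.09, chromosome 2 between 240773455 and 240866689). At similar levels, 24.3% of transcripts lay as far from 0 as Rela and 63.6% as far as Nfkb1.

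Relb and Nfkb2 encode RelB and p100, the pair of the noncanonical pathway. Relb measured 1.90 FPKM under vehicle and 1.62 FPKM under CORT, a log2 ratio of -0.23 (chromosome 1 between 80517410 and 80544825). Nfkb2 measured 1.72 FPKM under vehicle and 1.59 FPKM under CORT, a log2 ratio of -0.12 (chromosome 1 between 266053001 and 266059256). Both lay well below Rela and Nfkb1 in each group, and at their levels 55.3% and 75.8% of transcripts lay as far from 0. A lower value in all 4 subunits is to be read beside the 44.7% of all transcripts with a lower value by any amount.

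Ikbkb encodes the catalytic kinase subunit IKKbeta, which phosphorylates the inhibitors. It was the member closest to equal, at 8.80 FPKM under vehicle and 8.68 FPKM under CORT, a log2 ratio of -0.02 (chromosome 16 between 74177214 and 74230815). Tnfaip3 encodes A20, a ubiquitin-editing enzyme that ends signalling upstream of the kinase and is itself an NF-kappaB target. It measured 1.93 FPKM under vehicle and 1.42 FPKM under CORT, a log2 ratio of -0.44 (chromosome 1 between 14402912 and 14412807), the lowest ratio of the 10. Of transcripts at its level 31.4% lay as far from 0, and with 1 FPKM added to both groups its log2 ratio was -0.27.

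**Figure D2:**
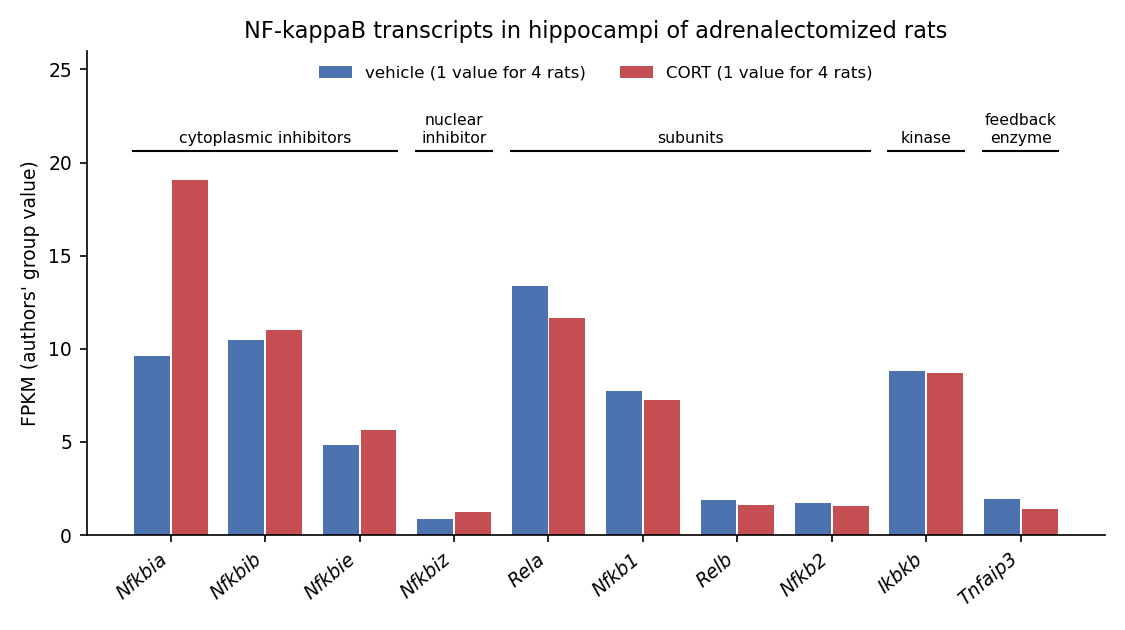
FPKM of the 10 members, ordered by role, with blue bars for the vehicle group and red bars for the CORT group. Each bar is the authors' single value for 4 rats and so has no error bar. Nfkbia stands at 9.61 and 19.1 FPKM, and no other member differs by 1.5-fold.

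The order of the levels differed between the groups at the top. With vehicle, Rela was highest, followed by Nfkbib, Nfkbia, Ikbkb and Nfkb1, whereas with CORT Nfkbia was highest, followed by Rela, Nfkbib, Ikbkb and Nfkb1. Whether neighbours in these orders differ beyond the spread between rats could not be assessed. Within a group, Nfkbia was at 0.719 times the level of Rela with vehicle and at 1.64 times with CORT. The 3 cytoplasmic inhibitors summed to 24.9 FPKM under vehicle and 35.7 FPKM under CORT, and the 4 subunits to 24.7 and 22.1 FPKM. The summed inhibitors were therefore at 1.01 times the summed subunits with vehicle and at 1.61 times with CORT. Without Nfkbia the remaining pair of inhibitors stood at 0.619 times and 0.751 times the subunits. Nfkbia made up 38.6% of the cytoplasmic inhibitor transcripts with vehicle and 53.5% with CORT. These are transcript levels in whole tissue and not amounts of protein.

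**Figure D3:**
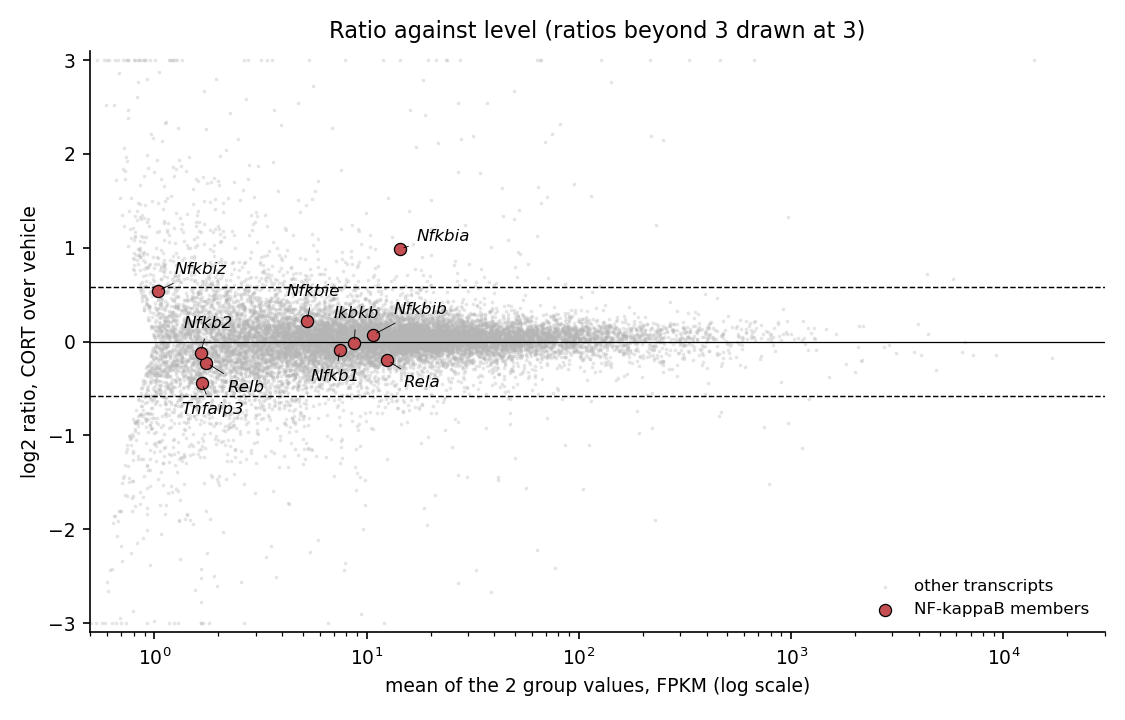
Log2 ratio of CORT over vehicle against the mean FPKM of both groups (log scale) for the 15808 transcripts at 1 FPKM or more in at least one group, in grey, and the 10 members, in red, with dashed lines at 1.5-fold. The ratios scatter more at low FPKM, where Nfkbiz, Tnfaip3, Relb and Nfkb2 lie, and Nfkbia lies at 0.99 above the bulk of transcripts at its level.

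The rest of the pathway was taken from 5 lists with 92 transcripts, of which 90 reached 1 FPKM. Of these, 1 (1.11%) was higher and 11 (12.2%) were lower by 1.5-fold, against the 4.00% and 4.45% of all transcripts, and their median log2 ratio was -0.02. Their median level was 4.70 FPKM under vehicle, against 9.70 FPKM for all transcripts, and ratios scatter more at lower levels. With 1 FPKM required in both groups, 5 of 80 were lower, against 2.87% of all transcripts. With a pseudocount of 1 FPKM, 5 of 90 were lower, against 2.31% of all transcripts. In the 3 lists of intracellular components, 51 of 52 transcripts differed by less than 1.5-fold. Of the 8 transcripts of other Rel and IkappaB family genes 0 were past 1.5-fold, with a median log2 ratio of 0.03, and of the 13 transcripts of negative regulators such as the deubiquitinase Cyld 0 were past it, with a median of -0.00017. Of the 31 transcripts of kinases and adaptors 0 were higher and 1 was lower, with a median of 0.0035.

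Among ligands and receptors, 12 of the 29 genes listed had a transcript in the table. Of their 14 transcripts 1 (7.14%) was higher and 5 (35.7%) were lower, against 4.00% and 4.45% of all transcripts. The median log2 ratio of the 14 was -0.39. Their median level was 2.60 FPKM under vehicle, against 9.70 FPKM for all transcripts. Tnfrsf11a, the receptor RANK, was the one that was higher, from 4.59 FPKM with vehicle to 10.5 FPKM with CORT (log2 ratio 1.20). Tlr2, which recognizes bacterial lipoproteins, measured 3.30 FPKM under vehicle and 1.48 FPKM under CORT, a log2 ratio of -1.16. Cd14, a coreceptor for endotoxin, was at 1.75 and 1.04 FPKM (log2 ratio -0.74). Cd40, a costimulatory receptor, was at 1.03 and 0.619 FPKM (log2 ratio -0.73). Tnfrsf1a, the main receptor for tumour necrosis factor, was at 9.06 and 5.65 FPKM (log2 ratio -0.68) and was the only one of the 5 above 5 FPKM. The last of them, Tlr3, a sensor of double-stranded RNA, is named after its values were seen, and had a log2 ratio of -0.64 for one of its transcripts and of -0.35 for the other. Cd40 and the Tlr3 transcripts were under 1 FPKM in the CORT group, where ratios scatter widely, and reached 1 FPKM only with vehicle. Of the transcripts at the level of Nfkbiz, near 1 FPKM, 30.8% were past 1.5-fold in one direction or the other.

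Among genes that NF-kappaB is known to activate, 21 of 35 had a transcript in the table. Of the 24 transcripts that reached 1 FPKM, 0 were higher and 5 (20.8%) were lower, against 4.00% and 4.45% of all transcripts. The median log2 ratio of the 24 was -0.18. Their median level was 4.67 FPKM under vehicle, against 9.70 FPKM for all transcripts. The chemokine Ccl2 measured 1.18 FPKM under vehicle and 0.234 FPKM under CORT, a log2 ratio of -2.33, and the chemokine Cxcl10 measured 1.07 and 0.284 FPKM (log2 ratio -1.91). One transcript of complement component C3 was at 1.52 and 0.551 FPKM (log2 ratio -1.47), while its other transcript, with a higher level, was at 8.91 and 9.88 FPKM (log2 ratio 0.15). Bcl2a1, a survival gene of blood and immune cells, was at 4.18 and 2.75 FPKM (log2 ratio -0.60), just past the 1.5-fold line. The last of the 5, the immunoproteasome subunit Psmb9, is named after its values were seen, and lay at the line with a log2 ratio of -0.59. Ccl2, Cxcl10 and the C3 transcript counted as lower were under 1 FPKM in the CORT group, where ratios scatter widely. They reached 1 FPKM only with vehicle. Of the 5, only Bcl2a1 and Psmb9, both close to the 1.5-fold line, were at 1 FPKM or more in both groups.

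Markers of several other cell types also had lower values with CORT. In whole tissue, fewer cells of a type and less RNA per cell cannot be told apart. Of 14 transcripts of 12 microglial markers 13 had a lower value with CORT, and the markers summed to 411 FPKM under vehicle and 345 FPKM under CORT (median log2 ratio -0.23). Of all transcripts, 44.7% had a lower value with CORT by any amount. The exception among the microglial markers, Tmem119, was at 5.72 FPKM under vehicle and 11.2 FPKM under CORT (log2 ratio 0.96), and was the only transcript of that list past 1.5-fold; it is named after its values were seen. Of 15 endothelial transcripts 13 had a lower value, with sums of 167 and 161 FPKM (median -0.27). By 1.5-fold 0 were higher and 3 (20.0%) lower, against 4.00% and 4.45% of all transcripts. Slc2a1, named after its values were seen, was at 46.1 FPKM under vehicle and 62.5 FPKM under CORT, which narrowed the gap between the sums. Of 9 transcripts of meningeal fibroblast markers 8 had a lower value, with sums of 122 and 89.7 FPKM (median -0.56). Of 8 blood transcripts 6 had a lower value, with sums of 1434 and 830 FPKM (median -0.45). Most of each blood sum came from the haemoglobin transcripts Hba1, Hba2 and Hbb, each lower by more than 1.5-fold. The blood markers S100a8 and S100a9 had higher values with CORT (log2 ratios 0.45 and 0.66), and S100a9 was past 1.5-fold. These blood genes are named after their values were seen. Of 10 choroid plexus transcripts 6 had a lower value, with sums of 6792 and 6779 FPKM (median -0.02), and of 16 oligodendrocyte transcripts 14, with sums of 7727 and 6329 FPKM (median -0.23). Of 20 astrocyte transcripts 10 had a lower value, with sums of 3379 and 2983 FPKM (median 0.01). By 1.5-fold 4 were higher and 3 lower. Gfap alone was at 970 FPKM under vehicle and 517 FPKM under CORT, a larger gap than that between the sums. Of the 4 that were higher, the Aldh1l1, Aldoc and Aqp4 transcripts were under 1 FPKM with vehicle and reached it only with CORT. The other, of Gjb6, lay close to the line (log2 ratio 0.59). The remaining Aqp4 transcripts, all at higher levels, had lower values with CORT. These astrocyte genes are named after their values were seen. Markers of hippocampal neurons, with which the labelled tissue was checked, had a lower value with CORT in 4 of 15 transcripts. They summed to 3304 and 3481 FPKM (median 0.11). Of the 86 markers in all these lists 78 had a transcript in the table. None of their transcripts was at 0 in a group, but the authors had already removed genes whose expression was too low. The lowest value was that of an Aqp4 transcript, at 0.0126 FPKM under vehicle and 2.55 FPKM under CORT. The part of these cell types in the values of the pathway lists was not tested.

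**Figure D4:**
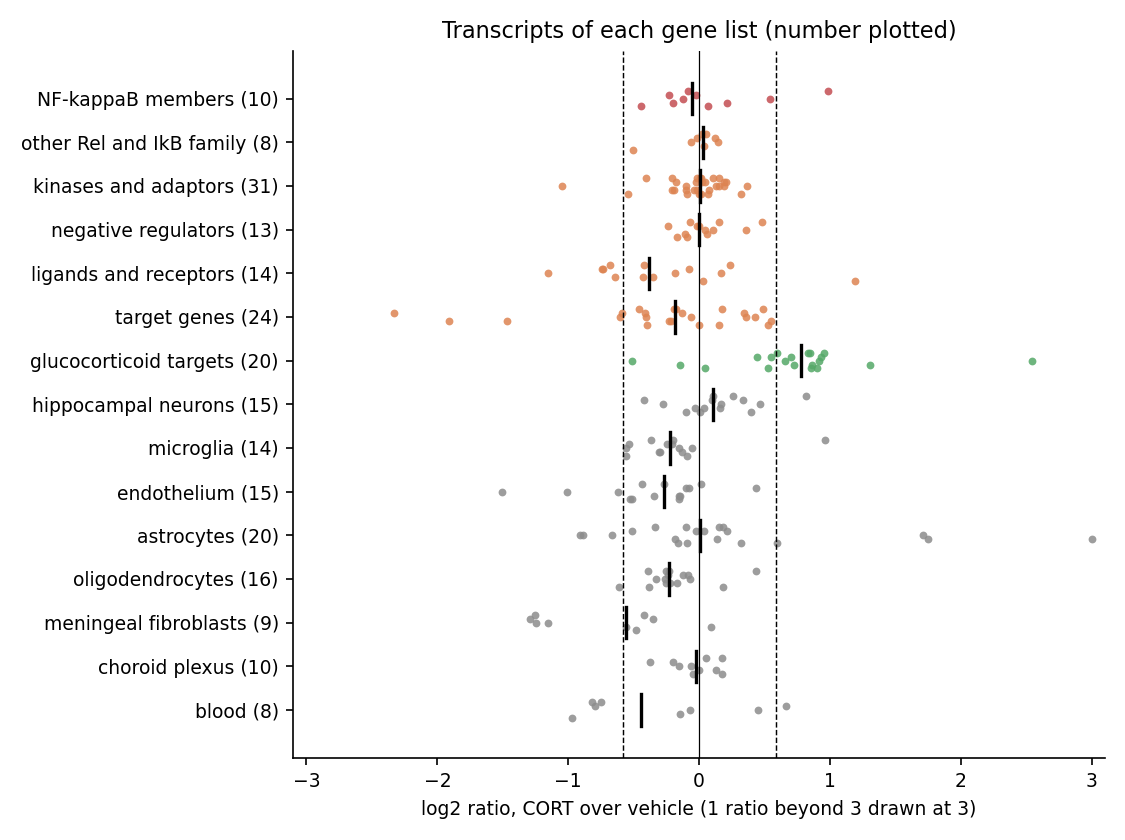
Log2 ratio of CORT over vehicle for each transcript at 1 FPKM or more in at least one group, by gene list, with the number plotted in brackets, a black bar at the median and dashed lines at 1.5-fold. Nfkbia is the rightmost red point at 0.99. The medians lie at -0.39 for ligands and receptors and at -0.18 for target genes, whereas the other 3 pathway lists have medians between -0.00017 and 0.03 and the glucocorticoid targets one of 0.78.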

How the data were processed

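RNA of whole hippocampi from 8 ADX rats, 4 per group, had been sequenced by the authors with a stranded total RNA kit. Per the labels and the paper, reads were aligned to rn6 with TopHat2 (2.0.10) and compared with Cuffdiff (2.2.0), with CASAVA 1.8.2 also named, using geometric library scaling, at least 10 alignments per transcript, and correction of multi-mapped reads, sequence bias and effective length. The authors deposited 1 FPKM value per group and transcript. The table also holds the authors' log2 fold changes, test statistics, p-values and q-values, which were not used. Each Ensembl transcript has a row of its own, so a gene can have several rows.

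The log2 ratio of CORT over vehicle FPKM was computed without a pseudocount. Transcripts at 1 FPKM or more in at least one group were counted as higher or lower at 1.5-fold. No test between groups was made, because only group values were given, and depth per rat is unknown. Samples were grouped by the treatment label. Promoter windows were searched in RefSeq sequences of GRCr8, and 8 of 10 members matched by symbol. All 10 members were named, and the rule for the other pathway lists was at most 4 genes in each direction, by size of ratio. Tlr3 and Psmb9 were named beyond that rule, after their values were seen, and Cyld only as an example. Of these lists, 1 gene is counted but its values are not reported here. The members and lists were chosen with earlier results of these data known. Lcn2 is in the glucocorticoid and the target list. The calling rule was run on artificial data to check the calculation. Its error rate on the measured values was not tested. The alternatives were other fold thresholds, filters, pseudocounts, centring and summed transcripts. Python 3.11.15, numpy 2.4.6, pandas 2.3.3 and matplotlib 3.10.9 were used.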

Additional observations from a re-analysis of the deposited data

How the results depend on the processing

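Of the 10 members, 1 was higher and 0 were lower by 1.5-fold. With the threshold lowered to a log2 ratio of 0.32, 2 were higher and 1 was lower (all transcripts 9.17% and 10.1%), and at 2-fold 0 were higher, since Nfkbia lay at 1.98-fold. Of the other pathway transcripts, 10 were higher and 21 lower at that lower threshold, against 1 and 11 by the main rule. At 2-fold, 5 were lower (all transcripts 1.77%). With 1 FPKM required in both groups 5 were lower (all transcripts 2.87%), and with a pseudocount of 1 FPKM also 5 (all transcripts 2.31%). The first filter leaves 80 of the 90 transcripts, and the pseudocount shrinks ratios of low values. The other 30 of 38 values under the alternatives stayed within 1.5 times of the main count or within 0.1 of the main median log2 ratio; that width was set here because no spread between rats is known. Of 40 ratios of single members under other pseudocounts, centring on the median or summed transcripts, 38 moved by less than 0.1, the exceptions being Nfkbiz and Tnfaip3 with a pseudocount of 1 FPKM, and 0 changed sign. Summing could not move these ratios, because each member has 1 transcript. Centring shifts every ratio by the same 0.02, which is less than 0.1. Only the pseudocounts could therefore move a member ratio by 0.1, so most of this count was fixed in advance or nearly so. With transcripts summed by symbol, 1.71% of all symbols were higher and 3.43% lower. Leaving out each rat was not run, because only group values were given. No paired analysis was possible because the values are not given for single rats.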

Other observations

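Outside the members, 597 transcripts at 1 FPKM or more belonged to genes whose RefSeq window holds the kB consensus. Of these, 3.69% were higher and 4.69% were lower by 1.5-fold, with a median log2 ratio of 0.02. Of the 10963 transcripts of genes whose window holds no match, 3.50% were higher and 4.01% were lower, with the same median. No test was made of the difference between these shares.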
